A study of Homo sapiens with 42 samples.

Results

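The comparison was between nuclear RNA of K562 cells after 1 h with imatinib (IM 1h) and nuclear RNA of untreated cells (CTRL). K562 is an established line from a patient with chronic myeloid leukaemia (CML) in blast crisis and is driven by the BCR-ABL1 fusion kinase, which imatinib inhibits. The 2 groups were taken by their sample labels and held 6 of the 42 libraries of the series, 3 for each group. Imatinib was added to the culture at 1 μM, the CTRL cells received no compound, and both groups were the same line, so the comparison rests on 1 cell line and 1 dose. RNA was taken from isolated nuclei and depleted of ribosomal RNA, so both spliced and unspliced transcripts could be sequenced. The library kit keeps the strand, but the stated counting did not use it, and a gene and a partner on the opposite strand cannot be told apart where they overlap. Imatinib for 18 h (IM 18h), 5 μM JTE-607 for 1 h (JTE 1h, an inhibitor of the cleavage and polyadenylation endonuclease CPSF73) and the polyadenylated RNA of whole cells (mRNA) after IM 1h and in CTRL are used below for the same genes.

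BCR-ABL1 keeps 3 signalling routes active in CML cells. It phosphorylates STAT5, which then binds DNA and switches on genes such as SOCS3, CISH and PIM1. It feeds the RAS-ERK route, which drives immediate early genes such as EGR1 and FOS and feedback inhibitors such as the Sprouty and DUSP proteins. It also activates PI3K and AKT, which hold FOXO transcription factors out of the nucleus. Several of these targets encode short-lived transcripts, and nuclear RNA samples them close to their synthesis.

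The 6 libraries held 19803825 to 22828792 counts on genes, and 21929 genes had enough counts to be tested. All 10 K562 markers, among them GATA1, TAL1 and the embryonic and fetal globins, were at 10 CPM (read pair counts scaled to library size) or more in both groups. Of 15 markers of other cells, 4 (KRT18, EPCAM, COL1A2 and PECAM1) were at that level and 8 were under 1 CPM, with the B cell gene MS4A1 at 0, and the summed level of the 15 was 261 to 318 CPM in CTRL and 283 to 332 CPM in IM 1h. Mitochondrial genes took 4.92 to 6.20% of the counts in CTRL and 5.00 to 5.80% in IM 1h. Nuclear libraries with the same replicate number deviated together from their group means (correlations over genes of 0.82, 0.37 and 0.77), so the numbers mark pairs in nuclear RNA. In such bulk samples a lower level can mean fewer cells that express a gene or less RNA per cell, and these cannot be told apart.

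Calls required an adjusted p below 0.05 together with a log2 change larger than 0.6 in either direction. Without the replicate number in the model, 10 genes were called, 0.0456% of the genes tested, with 9 lower (0.041%) and 1 higher (0.00456%) after imatinib. With the replicate number as a block, 69 genes were called, 0.315% of those tested, of which 54 were lower (0.246%) and 15 higher (0.0684%). All 10 were among the 69. Every one of the 69 moved the same way in all 3 pairs, and in 62 the IM 1h libraries did not overlap the CTRL libraries, against 9.83% of all tested genes (6.12% with all IM 1h libraries below and 3.71% with all above). The 69 were selected on these same libraries, so both counts follow in part from the selection and are no separate support. The median log2 fold change over all genes tested was 0.002. Scaling of the libraries places the bulk of genes near 0, so a shift shared by all genes could not be seen.

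**Figure D1:**
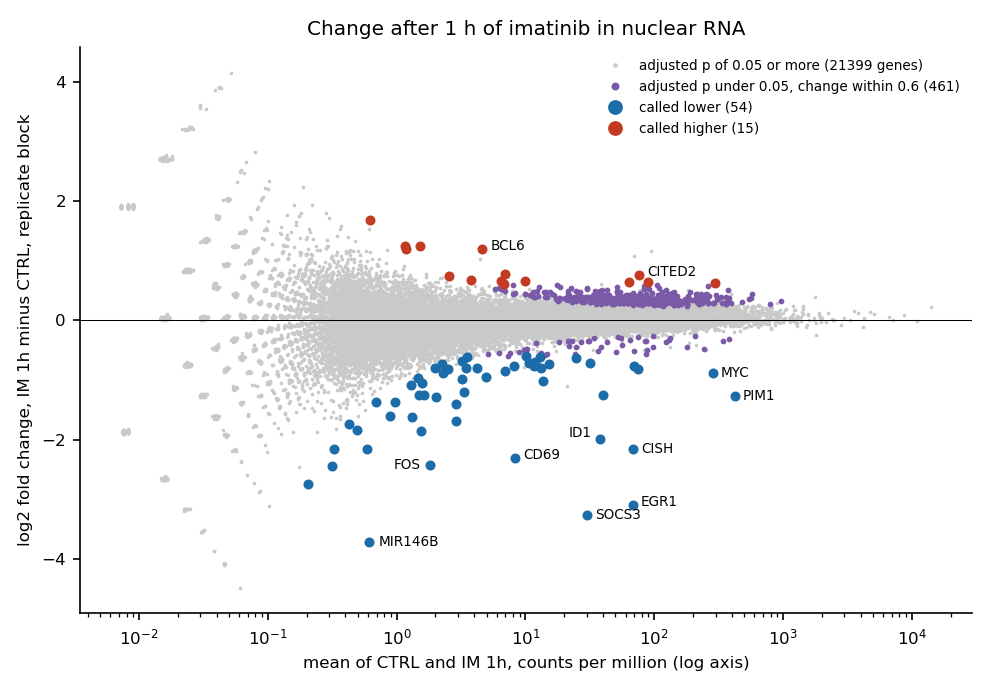
Each point is 1 tested gene, placed by its mean level in the 2 groups (CPM, log axis) and its log2 fold change of IM 1h minus CTRL with the replicate block. The 54 genes called lower reach further from 0 than the 15 called higher, and 461 genes past the adjusted p have changes within 0.6.

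The STAT5 targets held some of the largest falls. SOCS3 and CISH encode feedback inhibitors of cytokine receptor and JAK-STAT signalling, and both are direct STAT5 targets. SOCS3 (ENSG00000184557, chr17:78356778-78360077 on the minus strand, hg38) stood at 48.4, 52.2 and 64.2 CPM in the 3 CTRL libraries. In the 3 IM 1h libraries it stood at 5.92, 6.57 and 4.54 CPM. The groups were far apart, and the highest treated library was well under the lowest untreated one. The log2 fold change was −3.27 with a standard error (SE) of 0.20, at an edgeR adjusted p of 1.31e-07. CISH (ENSG00000114737, chr3:50606490-50611831, minus strand) stood at 86.5, 116 and 133 CPM in CTRL and at 21.5, 30.7 and 23 CPM in IM 1h. It fell by 2.15 ± 0.19 (SE) on the log2 scale, at an edgeR adjusted p of 1.7e-05. Per kilobase of exon both genes started at about the same level, 20.1 CPM for SOCS3 and 21.9 CPM for CISH in CTRL, and ended at 2.08 and 4.90 CPM in IM 1h.

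The DNA before CISH is shown because STAT proteins bind a palindrome, TTCNNNGAA, which is printed in capitals. The run is the 250 bases before the start of the gene in the count table, read 5′ to 3′ on the gene's strand from hg38.
CISH, chr3:50611832-50612081, minus strand: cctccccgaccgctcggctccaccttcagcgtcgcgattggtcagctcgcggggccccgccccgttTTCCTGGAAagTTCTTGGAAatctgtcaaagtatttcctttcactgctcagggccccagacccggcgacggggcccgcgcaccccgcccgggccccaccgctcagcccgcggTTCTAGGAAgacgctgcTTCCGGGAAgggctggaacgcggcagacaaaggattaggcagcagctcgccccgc
The CISH run holds 4 matches, which begin 184, 173, 72 and 55 bases before the start. The palindrome reads the same on both strands and does not overlap the other 3 motifs searched (GTAAACA, TGACGTCA and CACGTG) in this run. Among windows of 300 bases (250 before the start and 50 from it on) at 21926 tested genes, 7.30% held it at least once and 2 held 4 or more. Among the 54 genes called lower 8 windows held it (14.8%), and among the 15 called higher 1 did. The FOXO site GTAAACA was in 3.28% of all windows, in 3 of the 54 and in 0 of the 15. The cyclic AMP response element TGACGTCA was in 2.02% of all windows, in 2 of the 54 and in 1 of the 15. The E-box CACGTG was in 7.34% of all windows, in 0 of the 54 and in 4 of the 15 (BCL6, CENPE, CENPF and CITED2). Those called lower with a match to the STAT palindrome included EGR1, IFNK, MIR146B, ITPRIP-AS1, ENSG00000258402 and ENSG00000280048. For MIR146B the start is that of the annotated hairpin, not of its primary transcript. A match describes these letters and does not show that a factor was bound.

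**Figure D2:**
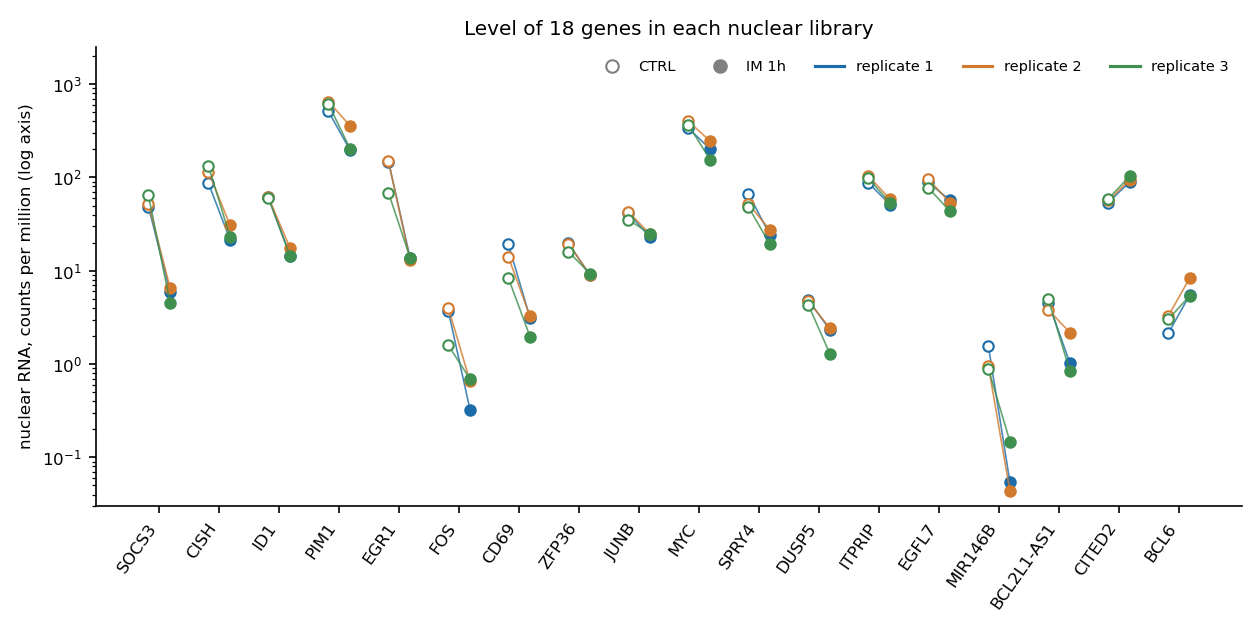
Level of 18 genes in each of the 6 nuclear libraries (CPM, log axis). Open circles are CTRL and filled circles IM 1h, and lines of 1 colour join libraries of the same replicate number. For SOCS3, CISH and ID1 all 3 IM 1h libraries lie well below all CTRL libraries, while CITED2 and BCL6 lie above.

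Among the other STAT5 targets, ID1, an inhibitor of basic helix-loop-helix transcription factors that also answers to BMP signalling, stood at 61.6, 61.1 and 59.6 CPM in CTRL and at 14.5, 17.5 and 14.3 CPM in IM 1h. It fell by 1.97 ± 0.25 on the log2 scale (edgeR adjusted p = 0.00691). PIM1, a survival kinase, was the most abundant of the genes called lower, with 509.6, 650.3 and 612 CPM in CTRL. It stood at 196, 358 and 203 CPM in IM 1h, where replicate 2 was the least reduced. Its change of −1.27 ± 0.17 was called with the block (edgeR adjusted p = 0.00528) and not without it (0.342). SOCS1, a further inhibitor of JAK kinases, went from 2.46, 2.87 and 3.66 CPM to 1.45, 1.87 and 1.48 CPM, and was called with the block (edgeR adjusted p = 0.017) but not without it (0.342). Of the 14 alternative fits run for SOCS1, the block was the only 1 that called it. In all, 14 of the 16 listed STAT5 targets could be tested. With the block 5 were called lower and 1 higher, without it 3 were lower, and 10 of the 14 were lower in every pair against 17.0% of all tested genes. Their median log2 fold change was −0.21. The list was chosen with earlier results of these data known, so its distance from all genes is no independent support. CCND2, a G1 cyclin, stood at 436 to 485 CPM in CTRL and 446 to 507 CPM in IM 1h. BCL2L1, which encodes the survival protein BCL-XL, changed by −0.13 ± 0.09 and SOCS2 by −0.25 ± 0.15, and neither was called in either fit.

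BCL6 was the 1 member of the STAT5 list called higher. It encodes a transcriptional repressor that STAT5 is known to hold down and FOXO factors to induce, and it stands on both lists. BCL6 stood at 2.15, 3.28 and 3.02 CPM in CTRL and at 5.55, 8.44 and 5.42 CPM in IM 1h, so the groups did not overlap. The rise of 1.2 ± 0.18 on the log2 scale was called with the block (edgeR adjusted p = 0.000181) and not without it (0.235). Its window at the start given in the count table held 1 palindrome. A RefSeq window (GRCh38.p14) of the same length at another start of the gene held 4, and the RefSeq window at a further start held 0. Of all 35116 RefSeq windows, 7 held 4 or more. The 30 bases around the start with 4 matches, 10 before and 20 from it on, show 2 of the 4.
BCL6, chr3:187745449-187745478, minus strand: gttgaTTCTTAGAActggggTTCTTAGAAg

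Immediate early genes are switched on within minutes of growth signals, and many encode transcription factors. EGR1 fell about as far as SOCS3 but with a wide spread among untreated libraries. It stood at 148, 151 and 68.7 CPM in CTRL and at 13.8, 13.0 and 13.9 CPM in IM 1h, and it was replicate 3 of CTRL that was low. Its change of −3.10 ± 0.52 was called with the block (edgeR adjusted p = 0.024) and not without it (0.173). FOS followed the same pattern at a lower level, with 3.66, 3.96 and 1.58 CPM in CTRL and 0.323, 0.652 and 0.690 CPM in IM 1h. It fell by 2.42 ± 0.31 with the block (edgeR adjusted p = 0.000145; without the block 0.0995). ZFP36, which encodes an mRNA-destabilising protein, was far more regular. It stood at 19.8, 19.5 and 16.0 CPM in CTRL and at 8.94, 9 and 9.32 CPM in IM 1h, and fell by 1.02 ± 0.14 without the block (edgeR adjusted p = 0.00407). MYC, which drives growth and ribosome production, stood at 336, 399.7 and 366 CPM in CTRL and at 203, 246 and 155 CPM in IM 1h. It fell by 0.88 ± 0.11 with the block (edgeR adjusted p = 0.000873; without it 0.149). JUNB, an AP-1 subunit, fell by 0.71 ± 0.10 with the block (edgeR adjusted p = 0.00024; without it 0.0575). IER2 and GADD45A passed the adjusted p with the block at smaller changes, −0.57 ± 0.09 and −0.52 ± 0.08. Of 27 listed immediate early genes tested, 5 were called lower with the block and none higher, and the list's median was −0.15. JUN, the AP-1 partner of FOS, was among those not called, as were ATF3, NR4A1 and KLF6.

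The RAS-ERK feedback genes split in a similar way. SPRY4, an inhibitor of receptor tyrosine kinase signalling, stood at 66.9, 52.2 and 48.3 CPM in CTRL and at 24.1, 27.3 and 19.2 CPM in IM 1h. It fell by 1.25 ± 0.24 with the block (edgeR adjusted p = 0.0371; without it 0.542). DUSP5, a nuclear phosphatase of ERK, stood at 4.87, 4.69 and 4.31 CPM in CTRL and at 2.32, 2.43 and 1.28 CPM in IM 1h, a change of −1.21 ± 0.19 (edgeR adjusted p with the block = 0.000456; without it 0.0575). FOSL1, another AP-1 subunit and ERK target, held 28.1 to 29.5 CPM in CTRL and 19 to 20.03 CPM in IM 1h, and its change of −0.56 ± 0.10 passed the adjusted p with the block but not the fold limit. With these, 2 of 17 tested members were called lower with the block, none without it, and the list's median was −0.07. The classic ERK readout DUSP6 was near 0 in all 6 libraries and could not be tested. SPRED1, SPRED2, ETV4 and ETV5, also listed as ERK feedback genes or targets, had log2 fold changes between −0.03 and 0.07, none of them called.

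In the FOXO and PI3K-AKT feedback list, CITED2 and BCL6 were called higher. CITED2 is a transcriptional co-regulator and FOXO target. It stood at 53.9, 56.6 and 59.2 CPM in CTRL and at 90.4, 94.7 and 103 CPM in IM 1h, and every treated library was above every untreated one. It rose by 0.77 ± 0.12 on the log2 scale (edgeR adjusted p = 0.014), the 1 gene called higher without the block. Of 22 listed genes tested, these 2 were called higher with the block and none lower. The list's median log2 fold change was 0.22, and 14 of the 22 were higher in every pair, where 21.0% of all tested genes were. This list too was chosen with earlier results of these data known. It was not compared with coding genes of like level and exon length. Those with exons of 8 kb or more and 10 CPM or more also had positive medians in the 3 pairs (0.09, 0.06 and 0.06). RICTOR, an mTORC2 subunit, and BTG1, an antiproliferative factor, passed the adjusted p with the block at 0.36 ± 0.07 and 0.34 ± 0.09. TXNIP, a glucose-uptake inhibitor, went the other way at −0.35 ± 0.08. CCNG2, a FOXO-induced cyclin, stood at 2.13 to 4.25 CPM in CTRL and 4.34 to 6.95 CPM in IM 1h, with a log2 fold change of 1.02 ± 0.27 that missed the threshold (edgeR adjusted p with the block = 0.0623). MXD1, a MYC antagonist on the MYC and MAX list, was at 0.47 ± 0.09 (edgeR adjusted p with the block = 0.00369), under the fold limit.

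**Figure D3:**
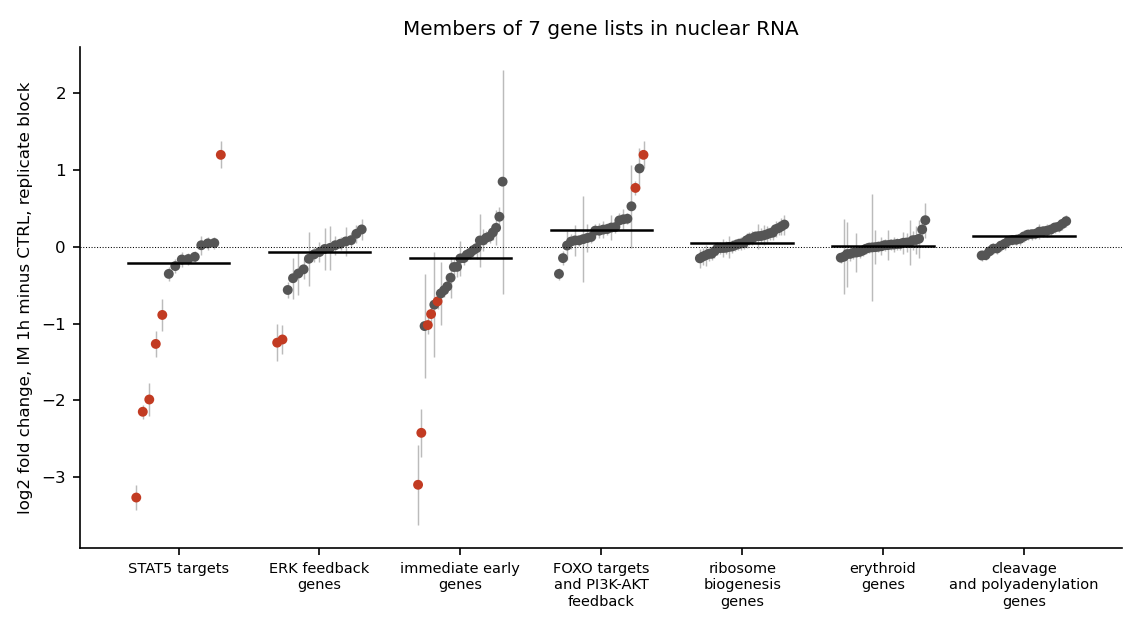
Each point is 1 tested member of a gene list, with its log2 fold change of IM 1h minus CTRL in nuclear RNA (replicate block) and its SE as a grey line. Red marks members called with the block and the black bar the list's median, which is −0.21 for STAT5 targets and 0.22 for the FOXO and PI3K-AKT list.

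Away from these lists, ITPRIP and EGFL7 were called lower without the block. ITPRIP, a modulator of inositol trisphosphate receptors, stood at 87.6, 104 and 97.6 CPM in CTRL and at 51.2, 58.6 and 53.6 CPM in IM 1h, and fell by 0.82 ± 0.13 on the log2 scale (edgeR adjusted p = 0.00943). EGFL7, a secreted factor first known from endothelium, went from 88.5, 95.8 and 77.3 CPM to 57.1, 53.5 and 43.4 CPM, a fall by 0.76 ± 0.13 (edgeR adjusted p = 0.0323). CD69, an early activation antigen of lymphocytes, stood at 19.2, 14 and 8.32 CPM in CTRL and at 3.12, 3.26 and 1.97 CPM in IM 1h, and was called only with the block (edgeR adjusted p = 0.0239; without it 0.86). IFNK, a type I interferon, went from 1.79 to 2.13 CPM down to 0.609 to 0.690 CPM, and was also called only with the block.

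Of the 54 genes called lower with the block, 24 were protein-coding, 19 long noncoding RNAs and 2 microRNA genes (44.4% protein-coding, against 62.8% of genes tested). Several of the noncoding genes lay in or beside a coding gene that was itself called. ITPRIP-AS1 lies inside ITPRIP on the other strand and fell by 1.40 ± 0.20 with the block, and ENSG00000284669 overlaps CSRNP1, an immediate early nuclear protein, in the same arrangement. ENSG00000281881 lies inside SPRY4 on its own strand. MIR3193 begins 671 bases past the end of ID1 on the same strand. BCL2L1-AS1 and ABALON lie 4682 bases apart, both inside the span of BCL2L1 and on the opposite strand, and fell by 1.69 ± 0.25 and 0.80 ± 0.19 with the block, while the counts of BCL2L1 itself did not pass the test. In total 10 of the 69 called genes (14.5%) had another called gene within 50000 bases, against 190 of the tested genes that were not called (0.869%). Since exon counts were unstranded, the counts of genes that overlap on opposite strands, such as ITPRIP and ITPRIP-AS1, are not independent. The other called pairs lie on the same strand. Of these, ENSG00000281881 and SPRY4 overlap, so their counts may not be independent either. Why the same-strand pairs fell together was not tested. LINC01993, called lower with the block at 0.539 to 0.870 CPM in IM 1h against 1.39 to 3.32 CPM in CTRL, starts 78286 bases downstream of SOCS3 on the same strand. RNU1-109P, a copy of the U1 small nuclear RNA gene, and the pseudogene IFITM9P were also called lower, and reads of such near-identical copies are uncertain.

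The 2 microRNA genes called lower were MIR146B and MIR3193. Their counts are RNA-seq read pairs on the annotated hairpin, not a measurement of the mature microRNA. MIR146B held 35, 21 and 18 counts in CTRL (1.56, 0.957 and 0.891 CPM) and 1, 1 and 3 counts in IM 1h. The ratio of IM 1h to CTRL from the summed counts of 5 and 74 was 0.0705 (exact Clopper-Pearson 95% interval 0.0222 to 0.172, counting error only), at an edgeR adjusted p of 0.00943. MIR3193, at 0.402 to 0.693 CPM in CTRL, was called with the block only. The mature sequences from RefSeq (GRCh38.p14) are given with the seed, bases 2 to 8, in capitals, and the 3 seeds differ.
hsa-miR-146b-5p: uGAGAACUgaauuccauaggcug
hsa-miR-146b-3p: gCCCUGUGgacucaguucuggu
hsa-miR-3193: uCCUGCGUaggaucugaggagu
The STAT palindrome before MIR146B begins 53 bases before the hairpin and is shown with 10 bases on each side. Where its primary transcript starts was not examined.
MIR146B, chr10:102436449-102436477, plus strand: cgggagacgaTTCACAGAAgaaagcatgc

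Beside CITED2 and BCL6, 12 more named genes were called higher, each with the block only. CENPF, CENPE and KIF20B, which act in chromosome segregation and cytokinesis, rose by 0.62 ± 0.11, 0.65 ± 0.09 and 0.65 ± 0.10. Their groups overlapped. CENPF stood at 406, 190.5 and 126 CPM in CTRL and at 529.6, 303 and 227 CPM in IM 1h, so that each pair rose while replicate 1 of CTRL was above replicates 2 and 3 of IM 1h. Without the block their edgeR adjusted p were 0.883, 0.881 and 0.879, and leaving out 1 library there moved CENPF from 0.14 (without IM 1h replicate 1) to 1.12 (without CTRL replicate 1), CENPE from 0.13 to 1.18 and KIF20B from 0.17 to 1.14 for the same libraries. With the block and 1 pair left out, CENPF ranged from 0.52 to 0.76, CENPE from 0.57 to 0.76 and KIF20B from 0.60 to 0.74, and each was called without pair 1 but not without pair 2 or pair 3. PNRC1, a nuclear receptor coactivator, went from 4.31 to 6.08 CPM up to 6.26 to 9.48 CPM (0.62 ± 0.15). CCDC186 rose by 0.66 ± 0.12 and SAMD9, an interferon-inducible gene, by 0.67 ± 0.17. The rest (RFPL4B, DDX53, NPM1P27, C1GALT1C1L, OR52A5 and LINC02772) were at 10.2 CPM or less in every one of these libraries, and NPM1P27 is a processed copy of NPM1 whose reads may come from its parent.

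At the adjusted p alone the balance of the block fit was the reverse of that among the called genes. There were 430 genes higher and 100 lower (1.96% and 0.456% of those tested), and 415 of the 430 had changes within the fold limit, with a median log2 fold change of 0.35. These 415 were protein-coding in nearly every case (99.0%), and their medians of length and level were high (exon length 7.02 kb against 3.26 kb for all tested, gene span 62.9 kb against 16.0 kb, level 67.1 CPM against 4.24 CPM). The 415 rose in each pair, with medians of 0.29, 0.31 and 0.43. The same genes also differed between untreated replicates, with a median log2 ratio of CTRL replicate 1 to CTRL replicate 3 of 0.66 where all tested genes had −0.02, and in mRNA their median log2 fold change was 0.06. Among 8737 protein-coding genes at 10 CPM or more, the share that was higher at the adjusted p went from 0.668% of those with exons under 2 kb to 8.08% of those with 8 kb or more. The part of length or of the replicate difference in these small rises was not tested. The called genes of both directions had shorter spans than all tested genes, with a median of 3.44 kb for the 54 lower and 4.41 kb for the 15 higher.

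**Figure D4:**
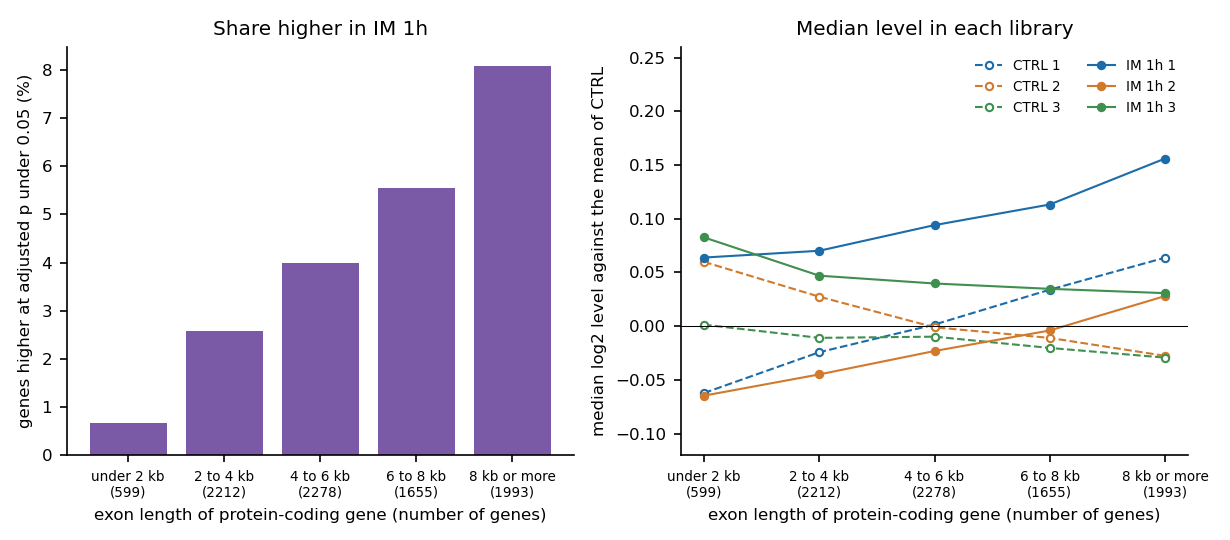
Left, share of protein-coding genes (10 CPM or more) that were higher in IM 1h at an adjusted p under 0.05 with the block, by exon length, from 0.668% to 8.08%. Right, median log2 level of the same genes in each of the 6 libraries against the mean of CTRL, which differs between replicates of 1 group as well as between groups.

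Calls were rare over all genes (0.315% with the block and 0.0456% without), so that lists of this size would hold about none at that share, and their counts set them apart from no other genes. None of 30 ribosome biogenesis genes, 28 erythroid genes, 19 ATF4 and amino acid stress genes, 15 BCL2 family genes, 13 G1 cyclins, CDKs and inhibitors, 20 partners of BCR-ABL1 signalling, 10 RNA processing genes and 12 genes of chimeric transcripts named by the study, or 7 nuclear retained RNAs was called in either fit. The median log2 fold changes of these lists lay between −0.06 and 0.09, where all genes had 0.002. Among 23 cleavage and polyadenylation genes, also without a call, 14 were higher in all 3 pairs against 21.0% of all tested genes, with a median of 0.13. Coding genes at 10 CPM or more with exons of 8 kb or more also had positive medians in the 3 pairs (0.09, 0.06 and 0.06). The list was not compared with coding genes of like level and exon length. PAPOLA, the canonical poly(A) polymerase, and RBBP6, a regulator of 3′ end cleavage, passed the adjusted p with the block at 0.30 ± 0.08 and 0.33 ± 0.07.

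In mRNA after the same exposure 3 of 18095 genes were called (0.0166%), SOCS3, CISH and ZFP36, all lower. SOCS3 stood at 29.0 ± 4.43 CPM (SD, n = 3) in mRNA CTRL and at 3.38 ± 1.35 CPM in mRNA IM 1h, a log2 fold change of −3.11 at an edgeR adjusted p of 2.3e-06. CISH went from 54.0 ± 17.2 to 15.8 ± 6.63 CPM (edgeR adjusted p = 0.0367) and ZFP36 from 11.4 ± 0.617 to 5.99 ± 0.0608 CPM (edgeR adjusted p = 0.0114). EGR1, at 103 ± 59.3 CPM in mRNA CTRL and 10.7 ± 8.80 CPM in mRNA IM 1h, was not called there. EGFL7 changed by −0.22 in mRNA and BCL6 by 0.47, neither called. The difference between the nuclear and mRNA responses was tested itself, and no gene was called among 19420 (395 at an unadjusted p under 0.05, and 0 calls by DESeq2 too). For SOCS3 the difference of the log2 fold changes, nuclear minus mRNA, was −0.16 ± 0.32, for CISH −0.37 ± 0.45 and for EGFL7 −0.55 ± 0.28.

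The same genes were then set beside IM 18h. The comparison of IM 18h with IM 1h used the same IM 1h libraries as the comparison with CTRL, so the values are given side by side and calls are not counted across the comparisons. IM 18h differed from IM 1h in 31.3% of all tested genes (16.8% higher and 14.5% lower; 33.4% with the block). SPRY4 fell from 23.6 ± 4.07 CPM at 1 h to 2.95 ± 1.84 CPM at 18 h (log2 difference −3.02, edgeR adjusted p = 1.61e-05). SOCS3, CISH, ID1, EGR1, PIM1, MYC, DUSP5 and EGFL7 were all lower again, by 0.70 to 1.83 on the log2 scale. ZFP36 was level at 9.09 ± 0.203 and 9.03 ± 0.911 CPM. FOS did not pass either, at 0.555 ± 0.202 and 0.554 ± 0.218 CPM. JUNB stood at 33.3 ± 4.23 CPM at 18 h against 24.2 ± 1.12 CPM at 1 h, past the adjusted p (edgeR adjusted p = 0.0103) but under the fold limit. CITED2 reached 199 ± 18.5 CPM, 1.05 above its 1 h level on the log2 scale (edgeR adjusted p = 8.85e-07). SOCS2 and CCND2, not called at 1 h, were lower at 18 h than at 1 h by 2.27 and 2.55 on the log2 scale.

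**Figure D5:**
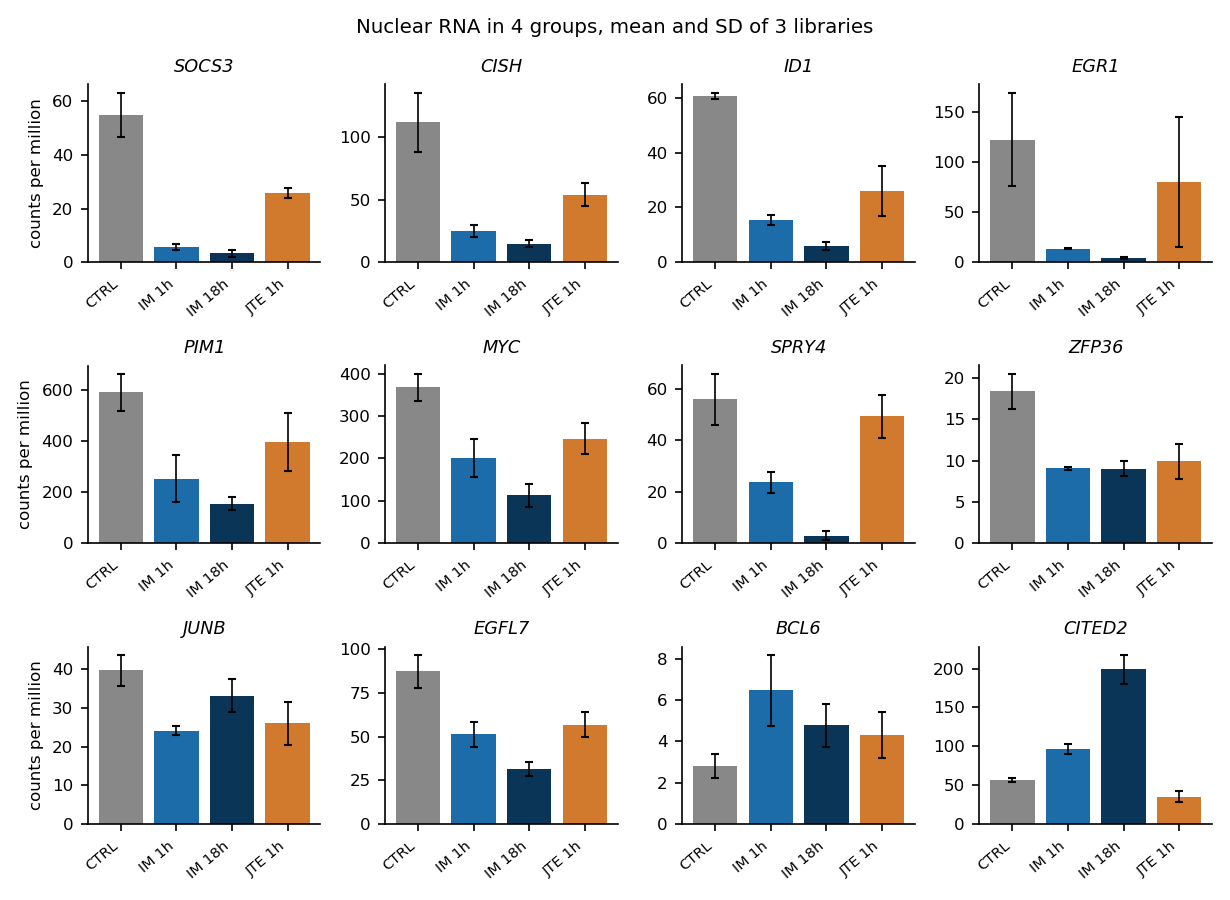
Nuclear RNA level (CPM, axis from 0) of 12 genes in CTRL, IM 1h, IM 18h and JTE 1h. Bars are means of 3 libraries and lines the SD. SOCS3, CISH and EGR1 are lower in IM 1h than in JTE 1h, while ZFP36 stands at 9.09 and 9.93 CPM in these 2 groups.

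IM 1h was also compared directly with JTE 1h, since both compounds were given for the same time. The same IM 1h libraries serve here again. In all, 7.42% of tested genes were called lower in IM 1h than in JTE 1h and 0.584% higher (9.88% either way and 1.08% higher with the block). SOCS3 stood at 5.68 ± 1.04 CPM in IM 1h and 25.7 ± 1.81 CPM in JTE 1h (log2 difference −2.17, edgeR adjusted p = 1.68e-06). CISH stood at 25.1 ± 4.91 and 54.0 ± 9.27 CPM (−1.11, edgeR adjusted p = 0.000538). EGR1 and SPRY4 were lower than in JTE 1h as well, by 2.56 and 1.06. CITED2, at 96.2 ± 6.65 CPM in IM 1h and 35.1 ± 7.02 CPM in JTE 1h, was higher than in JTE 1h (1.45, edgeR adjusted p = 3.33e-07). ZFP36, MYC, JUNB and EGFL7 did not pass, with log2 differences of −0.12, −0.29, −0.11 and −0.15 (SE 0.13 to 0.18), and MYC stood at 201 ± 45.2 and 246 ± 37.1 CPM. The JTE 1h means of SOCS3, CISH, ZFP36, MYC and CITED2 were themselves below every CTRL library given above. A difference from JTE 1h is therefore not a change from the untreated level, and JTE 1h was not tested against CTRL here.

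The study asked about transcription past gene ends, so counts of low genes just downstream of expressed genes were compared. The read-in score is the mean log2(CPM + 0.5) of such genes minus that of low genes far from any expressed gene. It was meant to rise where transcripts run past a gene's end into the next gene. The score was not tried on JTE 1h, so its response to readthrough was not tested. The paper instead counted long reads of chromatin RNA ending past the last polyadenylation site, and reported more readthrough after 1 h. That measure was not repeated here. Over 624 low genes starting within 10000 bases downstream of a same-strand gene at 10 CPM or more, and 4611 isolated low genes, the CTRL libraries scored −0.25, −0.20 and −0.11 and the IM 1h libraries −0.26, −0.24 and −0.17. The groups overlapped, and the difference of −0.04 did not pass (exact two-sided permutation p = 0.6 over 6 libraries, where 0.1 is the smallest possible). All 3 pairs were lower in IM 1h, by 0.02, 0.04 and 0.06, but 3 pairs cannot reach a p below 0.25. By distance, the difference was −0.07 for 184 genes within 2000 bases (exact permutation p = 0.7), −0.03 for 440 genes at 2000 to 10000 bases (exact permutation p = 0.5) and −0.02 for 511 genes at 10000 to 50000 bases (exact permutation p = 0.2).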

How the data were processed

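Exon counts per gene in nuclear RNA and in mRNA were deposited by the authors as raw, unnormalised counts. Per the study's methods, reads were trimmed and deduplicated, aligned with STAR to GRCh38 keeping unique alignments (introns of up to 10000 bases), and counted as fragments on exons with featureCounts, with no strand setting stated. Groups and replicate numbers came from the sample labels, and no count column lacked a sample. The labels and the methods name different media and ribosomal RNA depletion kits.

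Counts were tested with edgeR 4.0.16 (R 4.3.3; TMM scaling, filterByExpr, robust quasi-likelihood F test, Benjamini-Hochberg adjustment over all tested genes), with all 15 nuclear or 27 mRNA libraries in 1 fit and 1 term per group. The replicate number as a block, DESeq2 1.42.0, RLE scaling, no count filter and left-out libraries were alternatives. Same-numbered nuclear libraries correlated at 0.82, 0.37 and 0.77 in their deviations from group means over 9308 genes, so the labelled numbers pair them. Replicates within a group differed beyond counting noise (chi-square per gene 6.08 to 23.5). CPM are TMM-scaled, and values are means ± SD or log2 fold changes ± SE. Depth was 19803825 to 22828792 counts per library of the 2 groups, and intervals cover counting error only. The tests were tried on simulated counts first. Gene symbols and types were matched by Ensembl ID to GENCODE 44 (57532 of 58243 IDs), since the annotation release of the files is not given in the sources used here.

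Genes could be named if called without the block, if among the 15 largest rises or falls called with it (symbol, mean of 1 CPM or more in the higher group, same direction in all pairs), or if a list member has an adjusted p under 0.05 in either fit or is among the 3 most abundant of its list, plus the cell markers. Not every list member or marker that met this rule is named. Others (ENSG00000258402, ENSG00000284669, ENSG00000281881, MIR3193, ABALON, CSRNP1, IFITM9P, CCNG2, SOCS2 and the uncalled list members) were named after their values were seen. The members, lists and motifs were chosen with earlier results of these data known. Exon length bins were added after seeing the data. The sequence before SOCS3 is not reported here.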

Additional observations from a re-analysis of the deposited data

Results flagged for a closer look

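RFPL4B, a low gene called higher in nuclear RNA with the replicate block only, stood apart because all 3 nuclear IM 1h libraries were above the mean of nuclear CTRL and all 3 mRNA IM 1h libraries below the mean of mRNA CTRL. Its log2 fold change was 0.66 in nuclear RNA and −0.09 in mRNA, a gap of 0.75. The test of the difference between fractions, run over all genes, gave 0.75 ± 0.30 (unadjusted p = 0.0263, edgeR adjusted p = 1).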

How the results depend on the processing

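The count of calls in nuclear RNA after IM 1h depended on the fit. Against 10 calls, the replicate block gave 69, no low-count filter 48, DESeq2 31 and DESeq2 with the block 29, while RLE scaling gave 12 and a fit on the 2 groups alone 11. Leaving out 1 library gave 4 to 9 calls, with 4 without IM 1h replicate 1, IM 1h replicate 3 or CTRL replicate 2. With the block, leaving out pair 1, 2 or 3 gave 52, 36 or 21, which held 34, 27 and 21 of the 69. DESeq2 with the block called 28 of the 69. SOCS3, CISH and ZFP36 were called under all 15 alternatives run for single genes, the other 7 of the 10 were lost under some, and none of the 10 changed sign. In mRNA, against 3 calls, the block gave 5 (ID1 and ITPRIP added), no filter 13, the 2 groups alone 1 and DESeq2 6, and leaving out 1 library gave 1 to 3, with 1 without IM 1h replicate 2 or 3 or CTRL replicate 1 or 2. The labelled numbers do not pair the mRNA libraries: same-numbered IM 1h and CTRL deviations correlated at −0.24, −0.27 and 0.88 over 8817 genes, and IM 1h replicates 1 and 2 correlated best with CTRL replicates 2 and 1 (0.83 and 0.83), so the block in mRNA is not a paired analysis. The nuclear minus mRNA difference gave 2 calls without the filter, against 0. The cause of these shifts was not tested. The read-in difference stayed between −0.07 and −0.001 and passed no test. The MIR146B counts of 1 to 3 per treated library limit its fold.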
